A study of Homo sapiens with 6 samples.

Results

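The genes described here are 41 genes of the striated muscle sarcomere, the repeating contractile unit of skeletal and cardiac muscle, measured in a human leukaemia line with and without the compound DB2115. They comprise 3 actins, 2 actin crosslinkers of the Z-disc, 8 myosin heavy chains, 6 myosin light chains, 3 forms of myosin-binding protein C, 8 troponins, 2 tropomyosins, titin and nebulin, 5 genes of the calcium store, and the muscle creatine kinase and desmin. They were named by symbol and found by mapping Ensembl identifiers to symbols, and 41 of 41 were present among the 58381 genes of the count table. They were selected on the raw counts and CPM of DB2115 against vehicle in these same libraries. The members' difference between the groups is therefore a description, without a p-value, and supports nothing beyond itself.

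RNA was sequenced from MOLM-13 cells, an established human line derived from acute myeloid leukaemia. Cultures in RPMI with 10% serum received either DB2115 at 5 µM or the vehicle (DMSO at 0.001%) for 20 h. The sample titles give DB2115 by this code name alone, and the series title names the transcription factor PU.1, the product of SPI1. Each group had 2 libraries, A and B, with total counts between 36547900 and 42446253. The labels list 3 samples per group and do not tie these letters to them. The upper limit that a count of 0 allows (3 counts of the total) is 0.0707 to 0.0821 CPM. CPM is the count of a gene relative to the library total (counts-per-million scale, after TMM scaling of the totals). Whether A and B are separate cultures is not stated in the labels, so p-values reflect the spread between libraries alone, and that spread could be technical.

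In a sarcomere, thick filaments of myosin pull on thin filaments of actin, whose access is gated by tropomyosin and the calcium-sensing troponin complex. Titin and nebulin act as molecular rulers of the filaments, and alpha-actinin anchors the thin filaments at the Z-disc. Calcium is released from the sarcoplasmic reticulum by ryanodine receptors and pumped back by SERCA pumps. In muscle these genes are switched on by MyoD-family, MEF2 and serum response factors, and many of them are known as tissue-restricted genes.

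Promoter sequences are shown for 5 members, because 4 neighbouring myosin heavy chain genes with almost no vehicle counts were all higher with DB2115, and because ACTA1 and RYR1 had among the largest differences. Each sequence is the 250 bases before the RefSeq start of the gene in GRCh38.p14, read 5′ to 3′ on the strand of the gene, which is the minus strand for all but RYR1. Capitals mark TATAAA boxes, matches to the CArG and MEF2 boxes (the sites of serum response factor and of MEF2), the PU.1 core GAGGAAGT on either strand, and a run of 15 bases shared by the myosin genes. All motifs were searched on both strands. The windows are chr17:10518543-10518792 (MYH1), chr17:10469560-10469809 (MYH4), chr17:10421951-10422200 (MYH8), chr1:229434095-229434344 (ACTA1) and chr19:38433441-38433690 (RYR1, plus strand).
MYH1: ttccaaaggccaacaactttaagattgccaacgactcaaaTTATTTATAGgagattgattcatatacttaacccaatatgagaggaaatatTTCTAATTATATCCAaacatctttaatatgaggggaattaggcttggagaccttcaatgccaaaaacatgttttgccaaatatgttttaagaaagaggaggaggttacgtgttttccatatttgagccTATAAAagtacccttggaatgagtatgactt
MYH4: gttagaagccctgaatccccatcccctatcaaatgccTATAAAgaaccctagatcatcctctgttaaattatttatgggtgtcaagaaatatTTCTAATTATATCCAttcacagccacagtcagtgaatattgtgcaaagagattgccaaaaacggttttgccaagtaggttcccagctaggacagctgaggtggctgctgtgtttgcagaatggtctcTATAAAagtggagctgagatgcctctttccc
MYH8: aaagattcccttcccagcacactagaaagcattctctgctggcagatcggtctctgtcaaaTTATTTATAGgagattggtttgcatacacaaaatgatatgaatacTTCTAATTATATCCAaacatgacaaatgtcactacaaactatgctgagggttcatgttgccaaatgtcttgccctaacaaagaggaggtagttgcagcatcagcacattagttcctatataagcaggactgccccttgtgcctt
ACTA1: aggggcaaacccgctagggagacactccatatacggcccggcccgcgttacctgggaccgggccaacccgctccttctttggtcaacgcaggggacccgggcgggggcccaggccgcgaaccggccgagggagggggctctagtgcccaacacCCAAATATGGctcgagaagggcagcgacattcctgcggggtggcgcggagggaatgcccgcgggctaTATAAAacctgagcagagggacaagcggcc
RYR1: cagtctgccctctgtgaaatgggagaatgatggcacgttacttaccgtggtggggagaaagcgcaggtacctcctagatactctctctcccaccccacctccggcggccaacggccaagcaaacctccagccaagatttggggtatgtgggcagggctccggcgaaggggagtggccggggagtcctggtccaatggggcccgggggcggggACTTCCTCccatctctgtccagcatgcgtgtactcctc
The run ttctaattatatcca began 159, 166, 158 and 144 bases before the start of MYH1, MYH2, MYH4 and MYH8. No other of 35116 RefSeq windows of this length held it on either strand. MYH3, the neighbour that was not called, has no window among them, so whether it holds the run was not seen. It was picked out after the sequences had been seen. TATAAA stood 31 bases before the start in MYH1, MYH2 and MYH4 and 30 bases before it in ACTA1. ACTA1 also held a CArG box 97 bases before its start. In RYR1 the PU.1 core lay on the opposite strand, from 38 to 31 bases before the start.

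RefSeq windows were found for 28 of the 41 members, 36 windows in all, with MYLPF listed there under the symbol MYL11. TATAAA on either strand occurred in 27.8% of member windows and in 10.7% of all windows. The CArG box was found in 8.3% and 1.2%, and the MEF2 box in 16.7% and 2.8%. The CArG windows were those of ACTA1, ACTC1 and MYL7. The MEF2 windows were those of MYH1, MYH8, MYL1, MYBPC3, TTN and CASQ2. Of these genes, ACTC1, MYL7, MYL1 and CASQ2 had no count in any library, MYBPC3 overlapped between the groups, and TTN was lower with DB2115. The MEF2 match of MYH1 and MYH8 overlaps a TATAAA read on the opposite strand. The E-box CANNTG, the site of MyoD-family factors, is short and common, and was found in 69.4% against 61.8%. The PU.1 core was held by 2.8% of member windows, RYR1 alone, against 2.2% of all windows. A match to these letters is a description and not a bound site. The members without an entry in this table were ACTN3, MYH3, MYH7, MYH7B, MYL2, MYL4, MYBPC2, TNNC1, TNNC2, TNNI1, TNNI2, TNNT3 and DES.

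Across the list, DB2115 libraries held more sarcomere transcripts than vehicle libraries, from a low base. The summed level of all members was 61.4 and 64.3 CPM in the vehicle libraries and 333 and 264 CPM in the DB2115 libraries. TNNT1, slow skeletal troponin T, made up 38.0% and 31.5% of the vehicle sum and 53.1% and 63.2% of the DB2115 sum. Without TNNT1 the sums were 38.1 and 44.1 CPM in vehicle and 156 and 97.3 CPM with DB2115. The groups did not overlap with or without that gene. In bulk RNA, more cells that transcribe a gene and more RNA of it per cell cannot be told apart.

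Of the 41 members, 27 had at least 30 counts over the 4 libraries, 8 had 1 to 29 counts, and 6 had no count in any library (ACTC1, MYL1, MYL2, MYL7, TNNT2 and CASQ2). Both DB2115 libraries stood above both vehicle libraries in 27 members, 1 member was the other way round, and in 7 the groups overlapped. The share of all genes with such a separation was not counted, so nothing is read from these numbers. Vehicle libraries held no count of 17 members, and 11 of these had counts with DB2115. A mean of at least 1 CPM was reached by 7 members in vehicle and by 17 with DB2115. By edgeR's quasi-likelihood test at an adjusted p under 0.05, fitted over 17219 genes, 19 of the 24 members tested were higher (32.7% of all genes tested were higher), and 1 was lower (31.3% of all genes tested were lower). The remaining 4 tested members were not called. In 13 of the tested members, 6 of them without vehicle counts, both vehicle libraries were under the level the filter asks for. These 13 could enter the fit only through DB2115 and had to differ. The calls on members only describe the data, and nothing is read from their share.

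**Figure D1:**
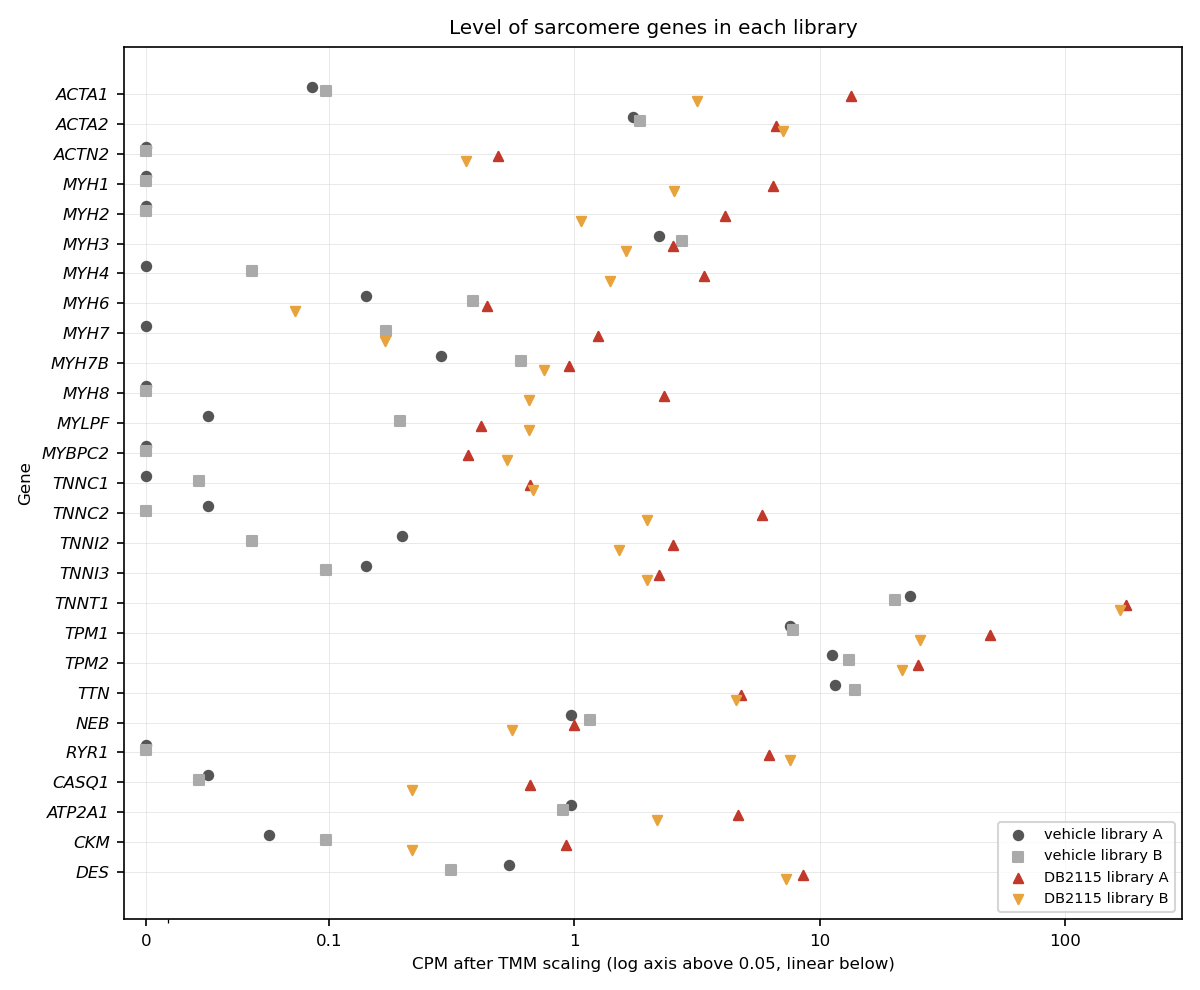
Level of the 27 sarcomere genes with at least 30 counts in each of the 4 libraries, as CPM after TMM scaling (x axis logarithmic above 0.05 and linear below), with 1 marker per library. TNNT1 stands above all other members in each library, genes such as RYR1 and MYH1 move from 0 to several CPM, and TTN is the gene whose vehicle libraries lie above its DB2115 libraries.

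Folds below compare the counts summed over the libraries of a group, relative to their summed totals after TMM scaling. They carry an exact 95% interval that covers counting error only. Where vehicle had no counts, the fold is a lower bound against 3 counts over the group. Raw counts are given in the order vehicle A, vehicle B, DB2115 A and DB2115 B.

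Among the actins, the skeletal muscle alpha-actin ACTA1 went from near 0 to several CPM. Its counts were 3, 4, 550 and 131, or 0.0854, 0.0969, 13.4 and 3.16 CPM. Both DB2115 libraries were far above vehicle, and library A was well above library B. The ratio was 90.3 (43.6 to 225), and it was 34.5 without DB2115 library A and 147 without DB2115 library B. ACTA2, the smooth muscle alpha-actin that is also made by myofibroblasts and early muscle, had 61, 77, 272 and 293 counts, or 1.74, 1.86, 6.65 and 7.08 CPM, a ratio of 3.80 (3.15 to 4.61). ACTA2 shares 758 bases with FAS, a death receptor gene on the opposite strand, which was 3.63-fold higher (3.38 to 3.89) and had 455, 536, 1947 and 1923 counts. It shares 40080 bases with STAMBPL1, also on the opposite strand, which had 115, 177, 60 and 94 counts. No source used here gives the strandedness of the counting, and the origin of reads in such overlaps is uncertain. ACTC1, the cardiac alpha-actin, had no counts. At the Z-disc, ACTN2, the alpha-actinin of all striated fibres, had 0, 0, 20 and 15 counts and was at least 10.8-fold higher, or at least 5.85-fold and 4.98-fold higher without vehicle library A or B, when the same 3 counts stand for a single library. ACTN3, the fast-fibre alpha-actinin, had 0, 0, 9 and 3 counts, too few for the test.

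The myosin heavy chains, the motors of the thick filament, are given here by position in the genome. The fast skeletal genes MYH1 (IIx), MYH2 (IIa) and MYH4 (IIb) and the perinatal gene MYH8 lie next to each other on chromosome 17, in the order MYH8, MYH4, MYH1, MYH2 from 10390322 to 10549957 in GENCODE 29 on GRCh38. Vehicle libraries held 2 counts in all for these 4 genes. MYH1 had 0, 0, 264 and 105 counts, or 6.45 and 2.54 CPM with DB2115, at least 114-fold higher. MYH2 had 0, 0, 169 and 44 counts and was at least 65.9-fold higher. MYH8 had 0, 0, 95 and 27 counts and was at least 37.8-fold higher. All 3 were silent in vehicle, and each was higher in DB2115 library A than in B. MYH4 had 0, 2, 138 and 58 counts, or 0, 0.0484, 3.37 and 1.40 CPM, a ratio of 91.0 (24.9 to 757).

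Single libraries moved these values. Without DB2115 library A the bounds were 64.6 for MYH1, 27.1 for MYH2 and 16.6 for MYH8, and the ratio of MYH4 was 53.5. Without DB2115 library B, MYH2 was at least 105-fold and MYH8 at least 59.1-fold higher. Without vehicle library A or B, the bounds were 61.7 and 52.5 for MYH1, 35.6 and 30.3 for MYH2, and 20.4 and 17.4 for MYH8. MYH4 then had a ratio of 49.2 and a bound of 27.9. The 4 genes stayed above vehicle in each of these cases.

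The next gene on one side, MYH13, the extraocular myosin, is not a member and was picked after its values were seen. It lies 17192 bases before MYH8 and had 0, 0, 153 and 31 counts. The next gene on the other side, the embryonic myosin MYH3, lies 78569 bases beyond MYH2 and was already transcribed in vehicle. It had 78, 114, 103 and 67 counts, or 2.22, 2.76, 2.52 and 1.62 CPM, and its groups overlapped with a ratio of 0.822 (0.665 to 1.02). The antisense transcript MYHAS runs through the cluster on the opposite strand and had 5 counts, all in DB2115 library B. These myosins are close paralogs, and how the counting shared reads between them is uncertain. The pooled column that the table also holds for DB2115 differed from the sum of both libraries by 10 counts for MYH1, -11 for MYH8, 4 for MYH2 and 4 for MYH4. It equalled the sum exactly for 32 of the 41 members, ACTA1, RYR1 and DES among them. The 9 unequal members also included genes outside the cluster, with the largest difference, 37 counts, in TNNT1.

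**Figure D2:**
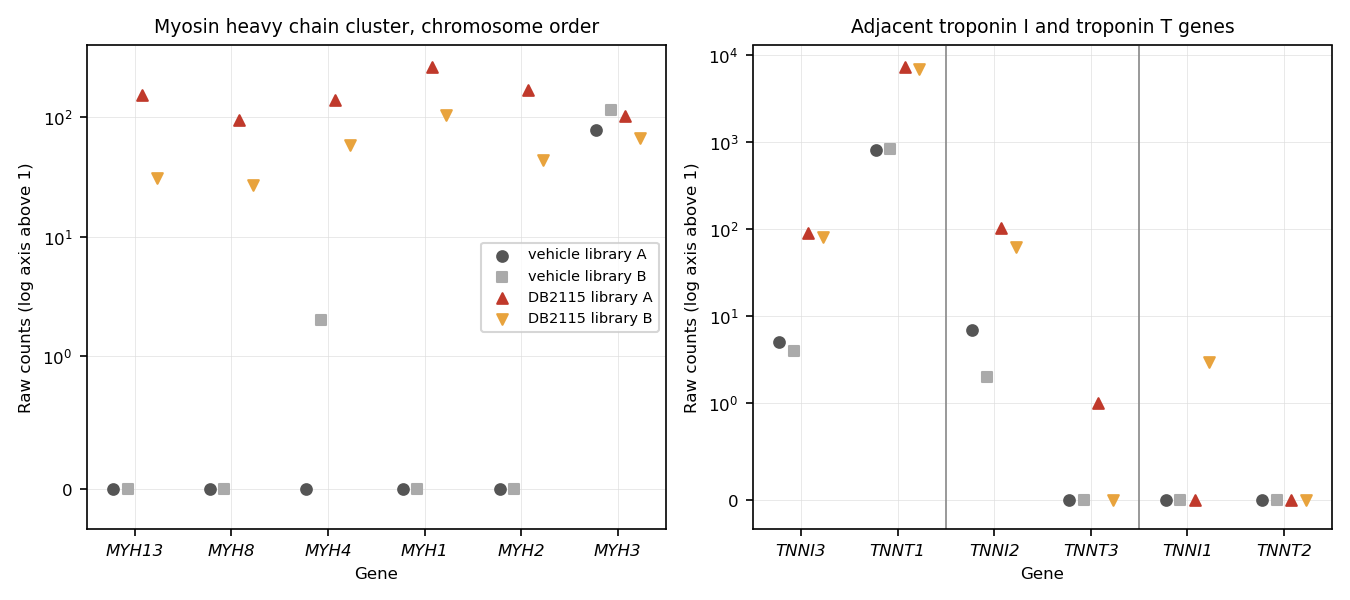
Raw counts per library (y axes logarithmic above 1 and linear below) of 6 myosin heavy chain genes in chromosome order, left, and of 3 pairs of neighbouring troponin I and troponin T genes, right, with 1 marker per library. MYH13, MYH8, MYH4, MYH1 and MYH2 lie at or near 0 in vehicle and between 27 and 264 counts with DB2115, whereas MYH3 overlaps. In the first troponin pair both genes are higher with DB2115, in the second TNNT3 holds 1 count, and in the third the pair holds 3 counts in all.

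The cardiac and slow myosins on chromosome 14 showed less. MYH7, the slow and ventricular beta-myosin, had 0, 7, 51 and 7 counts, and the DB2115 range touched that of vehicle. Its ratio of 7.69 (3.51 to 20.0) rested on library A, since it was 1.85 without it and 13.6 without DB2115 library B, and it was 4.16 without vehicle library A. MYH6, the atrial alpha-myosin, had 5, 16, 18 and 3 counts and a ratio of 0.928 (0.482 to 1.79). That ratio ran from 0.264 without DB2115 library A to 1.79 without vehicle library B, and was 1.60 without DB2115 library B. MYH7B, an ancient slow-type myosin on chromosome 20, had 10, 25, 39 and 31 counts, a ratio of 1.86 (1.22 to 2.87), 2.99 without vehicle library B, and was not called.

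The light chains that stabilise the myosin lever arm were nearly absent in both groups. MYL1, MYL2 and MYL7 had no counts. MYL3 had 10 counts and MYL4 5 counts, all with DB2115. Only MYLPF, the fast skeletal regulatory light chain, was measurable, with 1, 8, 17 and 27 counts and 0.0285, 0.194, 0.415 and 0.652 CPM. Its ratio was 4.54 (2.19 to 10.6). It was called in the fit of all libraries but not without vehicle library A or without DB2115 library B, and the ratio ran from 2.76 without vehicle library A to 18.8 without vehicle library B. Of the myosin-binding proteins C, which brace the thick filament, the fast form MYBPC2 had 0, 0, 15 and 22 counts. It was at least 11.4-fold higher, or at least 6.19-fold and 5.26-fold higher without vehicle library A or B. The slow form MYBPC1 had 1, 0, 6 and 20 counts. The cardiac form MYBPC3 had 5, 8, 9 and 7 counts, with overlapping groups, although its neighbour 2158 bases away is SPI1, with 6585, 7320, 8585 and 7097 counts.

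The troponins held the most abundant member. TNNT1 (chr19:55132794-55149354) had 820, 835, 7248 and 6916 counts, or 23.3, 20.2, 177 and 167 CPM, with means of 21.8 ± 2.21 CPM in vehicle and 172 ± 7.12 CPM with DB2115 (SD, n = 2). The libraries of each group lay close together, and the ratio was 7.95 (7.55 to 8.37). TNNI3, the cardiac inhibitory subunit, lies next to TNNT1 on the same strand, with 2413 bases between the end of TNNI3 and the start of TNNT1. It had 5, 4, 91 and 82 counts, or 0.142, 0.0969, 2.22 and 1.98 CPM, a ratio of 17.8 (9.19 to 39.7). These adjacent genes encode a slow skeletal and a cardiac subunit and were both higher.

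TNNC2, the fast skeletal calcium sensor, had 1, 0, 239 and 82 counts, or 0.0285, 0, 5.84 and 1.98 CPM. With 1 vehicle count its ratio of 298 is loosely bounded (53.1 to 11800). It was 151 without DB2115 library A and 137 without vehicle library B, and at least 53.7 without vehicle library A. TNNC1, the calcium sensor of slow and cardiac muscle, had 0, 1, 27 and 28 counts, a ratio of 51.1 (8.79 to 2050), which was 27.6 without vehicle library A and at least 7.82 without vehicle library B. TNNI2, the fast inhibitory subunit, had 7, 2, 103 and 63 counts, a ratio of 17.1 (8.81 to 38.1), which was 41.6 without vehicle library A and 10.1 without vehicle library B. The partners of these genes stayed near 0, with 1 count for the fast TNNT3, 3 counts for the slow TNNI1 and none for the cardiac TNNT2. No fibre type had all 3 of its troponin subunits at more than 3 counts: troponin T of the fast set, troponin I of the slow set and troponin T of the cardiac set were at these few counts or at 0. LSP1, a leukocyte gene between TNNI2 and TNNT3, had 109, 141, 1697 and 2474 counts.

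Tropomyosins, which are also made outside muscle, were present in vehicle and higher with DB2115. TPM1 had 265, 322, 2018 and 1059 counts, or 7.54, 7.80, 49.3 and 25.6 CPM, a ratio of 4.87 (4.45 to 5.32). TPM2 had 394, 543, 1030 and 899 counts, or 11.2, 13.2, 25.2 and 21.7 CPM, a ratio of 1.91 (1.77 to 2.07). The groups of both genes stood clear of each other. Gene counts do not separate the muscle isoforms of TPM1 and TPM2 from the isoforms of other cells.

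The giant proteins did not share this direction. TTN, titin, had 409, 580, 196 and 189 counts, or 11.6, 14.0, 4.79 and 4.57 CPM, and was 2.77-fold lower with DB2115 (2.46 to 3.12). It was the one member whose vehicle libraries both stood above the DB2115 libraries. The antisense gene TTN-AS1, which shares 253975 bases with TTN on the opposite strand, had 279, 295, 121 and 124 counts and was 2.52-fold lower (2.17 to 2.94), and without strand the reads of both cannot be told apart. NEB, nebulin, had 34, 48, 41 and 23 counts, with overlapping groups and a ratio of 0.725 (0.514 to 1.02). NEB shares 22678 bases with RIF1, a DNA repair gene on the opposite strand, which was 1.59-fold lower.

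Of the calcium store genes, RYR1, the skeletal ryanodine receptor, had 0, 0, 254 and 312 counts, or 6.21 and 7.54 CPM with DB2115. It was at least 175-fold higher, the highest bound among members without vehicle counts, and at least 94.6-fold and 80.5-fold higher without vehicle library A or B. Unlike the fast myosins it was no higher in library A than in B. RYR1 (chr19:38433699-38587564) stands between RASGRP4, a Ras activator of myeloid cells with 191, 159, 1977 and 2110 counts, and MAP4K1, a kinase of blood cells 77 bases beyond it with 102, 101, 986 and 1141 counts. Both neighbours were also higher with DB2115, and whether reads run from one gene into the next was not tested. ATP2A1, the fast skeletal SERCA pump, had 34, 37, 190 and 90 counts, or 0.968, 0.896, 4.64 and 2.17 CPM. Its ratio was 3.66 (2.81 to 4.82), 2.34 without DB2115 library A, and it was not called without vehicle library B. It shares 964 bases with ATP2A1-AS1, which had 57, 30, 93 and 83 counts. CASQ1, the fast-fibre calcium buffer, had 1, 1, 27 and 9 counts, a ratio of 16.7 (4.30 to 143), which was 8.31 without DB2115 library A and 25.2 without DB2115 library B. RYR2, the cardiac receptor, had 2, 3, 3 and 8 counts.

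DES, desmin, the intermediate filament that ties Z-discs together, had 19, 13, 351 and 302 counts, or 0.541, 0.315, 8.58 and 7.30 CPM, a ratio of 18.9 (13.3 to 27.9). Its neighbour SPEG, a muscle kinase gene 8107 bases further on, had 28, 36, 849 and 902 counts. CKM, the muscle creatine kinase, had 2, 4, 38 and 9 counts and a ratio of 7.27 (3.10 to 20.8), 2.77 without DB2115 library A and 11.8 without DB2115 library B.

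**Figure D3:**
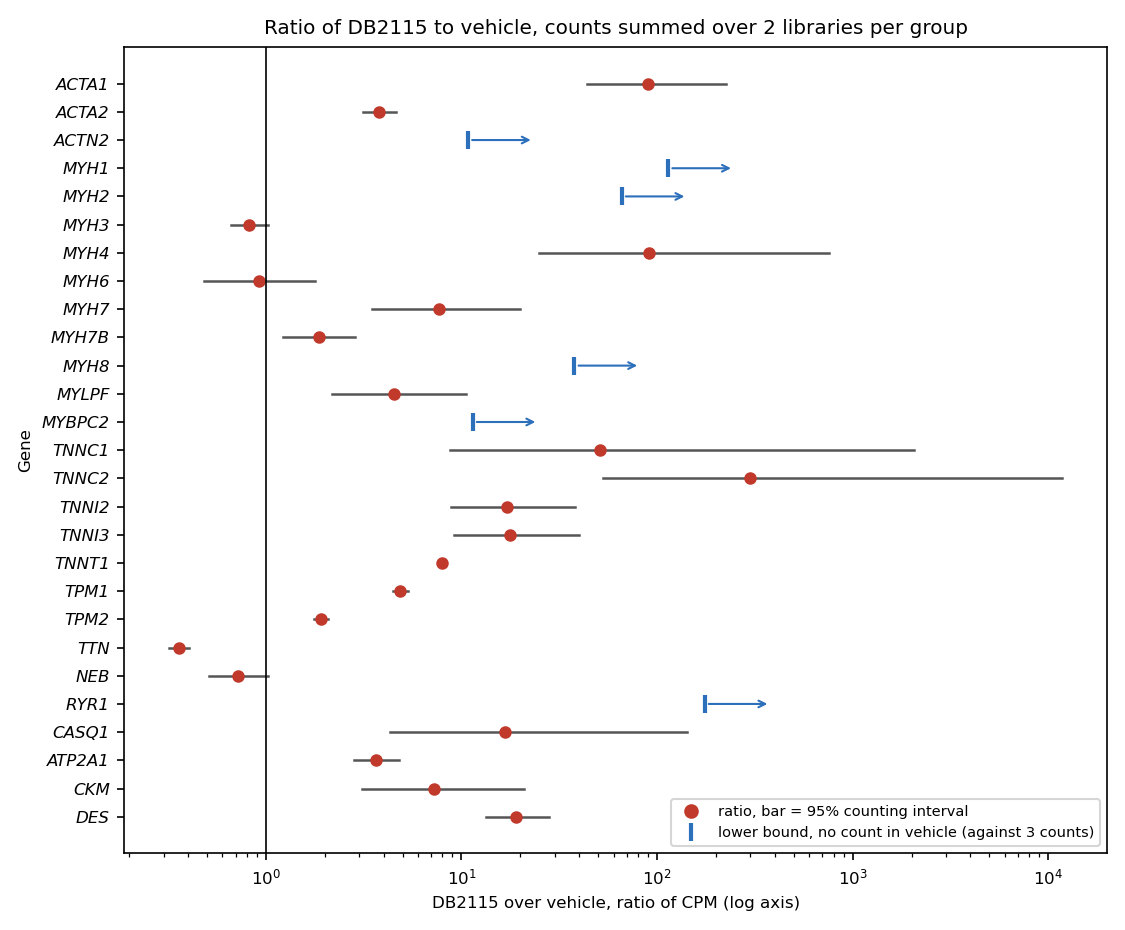
Ratio of DB2115 to vehicle for the 27 sarcomere genes with at least 30 counts (x axis logarithmic), from counts summed over 2 libraries per group, relative to their summed totals after TMM scaling. Points carry 95% counting intervals, arrows start at lower bounds for genes without vehicle counts, and values run from 0.361 for TTN to 298 for TNNC2, with wide intervals for genes that had 1 or 2 vehicle counts.

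Ordered by level per kilobase of annotated exon, TNNT1 came first in both groups, with 10.0 CPM per kb in vehicle and 79.3 CPM per kb with DB2115. TPM2 came next in both groups, with 3.75 and 7.22 CPM per kb. With DB2115 it was followed by ACTA1 (5.55), TNNC2 (4.46), DES (3.22) and TPM1 (2.91 CPM per kb). The order after TNNT1 was not stable between libraries. In DB2115 library A, ACTA1 was at 8.99 CPM per kb and TPM2 at 7.75, and in library B they were at 2.12 and 6.69. TNNC2 and DES likewise changed places, at 6.67 and 3.48 CPM per kb in library A and 2.26 and 2.96 in library B.

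The DB2115 libraries disagreed with each other on part of the list, a pattern picked after the values were seen and given without a test. Of 13259 genes with at least 100 DB2115 counts, 17 were at least 2-fold higher in library A than in library B, 0.128%, and 7 of these 17 genes were sarcomere members. In the other direction, 35 genes were at least 2-fold higher in library B, 0.264%, with no member among them. The 7 members higher in library A came from the 17 members with enough counts to be compared. ACTA1 had the second highest ratio of all genes, 4.25 (3.50 to 5.18), after MYH13 with 4.99 (3.38 to 7.60). MYH2 followed with 3.89, MYH8 with 3.56, TNNC2 with 2.95, MYH1 with 2.54, MYH4 with 2.41 and ATP2A1 with 2.14. TPM1 was just under, at 1.93. Of these 7 members, MYH1, MYH2, MYH4, TNNC2 and ATP2A1 are known from fast skeletal fibres, as is TNNI2, which had a ratio of 1.65. Fast-fibre members under 100 counts went both ways, with 3.04 for CASQ1 and for ACTN3, 0.637 for MYLPF and 0.690 for MYBPC2. Of these, all but CASQ1 had intervals that held 1.

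Over all genes compared, the 5th to 95th percentile ran from 0.793 to 1.25 around a median of 1.01. Of the 17 members compared, 10 lay outside that range, the 7 above with TPM1, TNNI2 and MYH3 (1.56), and 7 lay inside it. DES had 1.18, TPM2 1.16, TNNI3 1.12, TNNT1 1.06, TTN 1.05, ACTA2 0.939 and RYR1 0.824. Among members under 100 counts, MYH7 (7.37), CKM (4.27) and CASQ1 (3.04) were also higher in library A, as were MYH6 (6.07, 1.77 to 32.2) and NEB (1.80). MYBPC1 was lower in library A (0.304, 0.0997 to 0.784). TNNC1 (0.976), MYLPF (0.637), MYBPC2 (0.690), MYH7B (1.27) and ACTN2 (1.35) had intervals that held 1. In vehicle, 12 of 12361 genes with at least 100 vehicle counts were at least 2-fold higher in library A, and none of the 6 members compared was. None of the 7 members named above reached 100 vehicle counts. ATP2A1, with 34 and 37 vehicle counts, had a vehicle ratio of A over B of 1.08 (0.658 to 1.77). TPM1, just under 2-fold with DB2115, had 0.967 (0.819 to 1.14) in vehicle. The others of the 7 had too few vehicle counts to show whether they split there too. The Z-disc gene LDB3, a non-member picked after its values were seen, had 63 counts in library A and 7 in library B. What set the libraries apart was not tested.

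**Figure D4:**
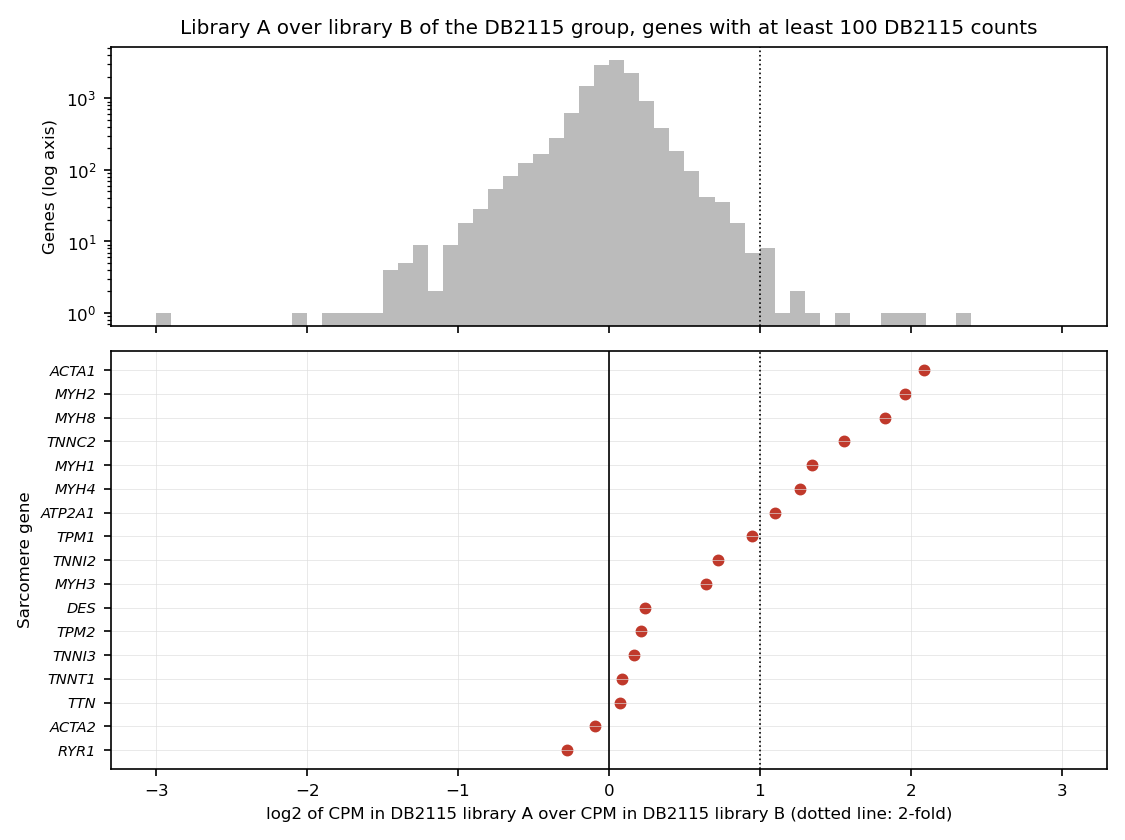
Level in DB2115 library A over DB2115 library B on a log2 axis, as a histogram of the 13259 genes with at least 100 DB2115 counts (y axis logarithmic), above, and for the 17 sarcomere members among them, below. The dotted line marks 2-fold, and 7 members, led by ACTA1 at 4.25-fold, lie beyond it, whereas members such as TNNT1, DES and RYR1 lie near 0.

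Regulators that drive these genes in muscle ranged from silent to abundant. Of 28 myogenic and cardiac transcription regulators, 8 had no count in any library, among them MYOD1, MYF5 and MYF6, 3 of the 4 MyoD-family factors. The 4th, MYOG, had 13, 1, 9 and 4 counts. Of the 13 regulators tested with edgeR, 4 rose, 7 fell and 2 were not called (over all genes tested 32.7% rose and 31.3% fell), with a median log2 change of -0.28 against 0.03 over all genes tested. One of the 4 that rose, GATA4, had 0, 0, 11 and 11 counts and could enter the fit only through DB2115. MEF2D fell by 1.59 on the log2 scale (edgeR adjusted p 2.59e-10), from 688 and 694 CPM to 236 and 223 CPM. MEF2C fell by 1.28 (edgeR adjusted p 1.08e-09). TEAD3, a TEA-domain factor, rose by 1.42 (edgeR adjusted p 5.41e-09).

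Some of the genes that build the sarcomere around its filaments rose. Of 40 Z-disc, M-band and assembly genes, 16 were tested, 9 rose, 1 fell and 6 were not called (32.7% and 31.3% of all genes tested), and 8 of the 40 had no count. Their median log2 change was 1.10. SPEG rose by 4.66 (edgeR adjusted p 4.28e-11), filamin C (FLNC) by 3.34 (edgeR adjusted p 4.75e-11) and tropomodulin 2 (TMOD2), which caps actin filaments and is best known from neurons, by 2.18 (edgeR adjusted p 5.50e-09). Of 13 genes of muscle energy metabolism found, 9 were tested, 5 rose, 1 fell and 3 were not called (32.7% and 31.3% of all genes tested), with a median of 0.88. Myoglobin (MB), the oxygen store of muscle, had 5, 3, 1125 and 1045 counts and rose by 7.93 (edgeR adjusted p 1.07e-11). CKB, brain-type creatine kinase, rose by 2.03 (edgeR adjusted p 2.60e-09). PHKA1, the muscle phosphorylase kinase subunit, fell by 2.16 (edgeR adjusted p 3.99e-09).

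Among the tested excitation-contraction coupling genes, most were not called. Of 18 listed, 10 were tested, 2 rose, 1 fell and 7 were not called (32.7% and 31.3% of all genes tested), with a median log2 change of -0.06, and TRDN and SLN had no count. ATP2A3, the SERCA pump of blood cells, rose by 0.65 (edgeR adjusted p 4.34e-07) and CACNB1 by 0.63 (edgeR adjusted p 2.09e-05). ATP2A2, the SERCA pump of most cells, fell by 0.41 (edgeR adjusted p 5.01e-05). Of 14 dystrophin complex genes, which link the sarcomere to the membrane, 10 were tested, 6 rose, 1 fell and 3 were not called (32.7% and 31.3% of all genes tested), with a median of 0.70. Vinculin (VCL) rose by 1.16 (edgeR adjusted p 2.60e-09) and utrophin (UTRN) by 0.99 (edgeR adjusted p 3.02e-06), and dystrobrevin alpha (DTNA) fell by 1.31 (edgeR adjusted p 6.81e-09).

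The counterparts of the members in other cells were, as a sum, abundant in both groups. All 14 non-muscle actin, myosin and tropomyosin genes were tested, 7 rose, 2 fell and 5 were not called (32.7% and 31.3% of all genes tested), with a median log2 change of 0.40. Non-muscle myosin MYH9 rose by 0.98 (edgeR adjusted p 1.23e-07), ACTN4 by 0.79 (edgeR adjusted p 2.27e-07) and ACTN1 by 0.55 (edgeR adjusted p 2.91e-06). MYH14, picked after its values were seen, had 3, 4, 61 and 45 counts. The summed level of the 14 genes was 13600 CPM in both vehicle libraries and 13600 and 13100 CPM with DB2115. Of 10 smooth muscle contractile genes, 6 were tested, 5 rose and 1 fell (32.7% and 31.3% of all genes tested), with a median of 0.72. MYLK, the myosin light chain kinase, rose by 2.75 (edgeR adjusted p 1.28e-05) and CNN2 by 0.77 (edgeR adjusted p 1.24e-07), and SYNPO2 fell by 2.61 (edgeR adjusted p 9.01e-10).

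Markers of the leukaemia line were present throughout, at changed levels. The 10 identity markers of that line, such as PTPRC, CD33, FLT3 and MPO, had counts in each library, with sums of 1640 and 1600 CPM in vehicle and 1530 and 1430 CPM with DB2115. Of these 10, 5 rose, 4 fell and 1 was not called (32.7% and 31.3% of all genes tested). PTPRC fell by 2.60 on the log2 scale (edgeR adjusted p 1.02e-11) and FLT3 by 1.63 (edgeR adjusted p 1.40e-10), and MPO rose by 2.46 (edgeR adjusted p 1.17e-11). Of 9 satellite cell and muscle lineage markers, 4 had no count in any library (MYOD1, MYF5, MUSK and MYMK), and the sum was 0.512 and 0.145 CPM in vehicle and 2.13 and 2.25 CPM with DB2115. CDH15, with 5, 5, 68 and 82 counts, held most of the DB2115 sum. It was the 1 marker of this list that was tested, and it rose (32.7% of all genes tested rose). MYMX had 0, 0, 10 and 4 counts, MYOG 13, 1, 9 and 4, PAX7 0, 0, 0 and 2, and CHRNA1 0, 0, 0 and 1. The summed levels of marker lists of other lineages were also higher with DB2115. In each list 1 gene held most of the DB2115 sum, though other fibroblast markers rose as well. Fibroblast markers summed to 13.8 and 6.49 CPM against 51.0 and 64.3 CPM, epithelial markers to 4.27 and 2.66 CPM against 68.5 and 66.2 CPM, and endothelial markers to 74.8 and 70.8 CPM against 169 and 169 CPM. COL1A1 made up 35.2 and 42.3 CPM of the fibroblast sums with DB2115, KRT8 65.8 and 63.6 CPM of the epithelial sums and PECAM1 168 and 168 CPM of the endothelial sums. Of 9 fibroblast markers, 6 were tested, 4 rose, none fell and 2 were not called (32.7% and 31.3% of all genes tested). Their median log2 change was 2.61. PDGFRB had 7, 7, 320 and 366 counts, FAP 23, 25, 153 and 118, and PDGFRA 0, 3, 18 and 20. COL1A2 and COL3A1 were not called, and DCN, LUM and THY1 were not tested. In the epithelial and the endothelial list alike, 3 markers were tested, 2 rose and 1 was not called. Other epithelial markers were not higher, with 6, 8, 2 and 2 counts for EPCAM, 11, 6, 5 and 4 for KRT19, and 3, 3, 6 and 3 for CDH1, although CLDN4 had 8, 3, 58 and 61 counts. None of the 9 fibroblast, 6 epithelial or 5 endothelial markers lacked counts in all libraries. None of the fibroblast, epithelial, endothelial and muscle lineage sums had an excess of DB2115 library A over B of the size seen in ACTA1 and the fast myosins. Since 1 gene held most of each, these sums do not show how the other markers split. In the muscle lineage list A over B was 0.839 for CDH15, 2.53 for MYMX and 2.28 for MYOG, all with intervals that held 1. The part of these markers in the sarcomere values was not tested.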

How the data were processed

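Total RNA of MOLM-13 cells was sequenced in the 2 groups described above. The authors deposited raw read counts per gene for 58381 Ensembl identifiers, of which 58261 received a symbol. Alignment used STAR on hg38 with FastQC, and DESeq2 was named, per the submitters' processing notes, without versions. No source used here gives the annotation, counting tool, strandedness or handling of multiply mapped reads. The labels list 3 samples per group, but in the table the column marked V matched A + B within 1% in 98.5% of genes with at least 200 counts and was left out as pooled, which leaves 4 libraries.

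Library sizes were adjusted by TMM. The 17219 genes kept by filterByExpr (at least 10 counts, 15 in all) were tested with edgeR 4.0.16 (glmQLFit and glmQLFTest, R 4.3.3, Benjamini-Hochberg adjusted p under 0.05), with treatment as the only term. The common biological coefficient of variation was 6.33%. The fit was tested on simulated counts of 17113 genes: 64% of genes made to change 1.5-fold were found, 80% at 2-fold, 92% at 4-fold and 98% at 8-fold, and 13 of 180 calls were false. Only 50 genes were changed at each fold, whereas 11030 genes were called in the data. These rates therefore do not carry over to the real contrast. Ratios carry exact Clopper-Pearson intervals at 95%. Levels per length use exons of GENCODE 29, and gene positions are from GENCODE 29.

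The members and gene lists were chosen with earlier results of these data known. Each member with at least 30 counts is named, and up to 3 genes of each other list with the smallest adjusted p at a mean of at least 1 CPM. Neighbouring genes, MYH13, LDB3, MYH14 and some lineage markers were named after their values were seen. Alternatives covered scaling, filters, DESeq2 1.42.0, limma-voom 3.58.1, the prior count, a replicate block and each library left out.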

Additional observations from a re-analysis of the deposited data

How the results depend on the processing

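With 19 members higher and 1 lower as reported, the same 19 and 1 were called with DESeq2 size factors, upper-quartile factors or total counts in edgeR, with the DESeq2 Wald test and with limma-voom. Requiring 1 CPM in 3 libraries left 6 members tested and 4 higher, and the 15 others were lost because they were not tested, with fewer than 3 libraries at 1 CPM. Of these 15, 6 had no vehicle counts and the others had some. Without a filter 24 members were higher, with ACTN3, CASQ1, CKM, MYBPC1 and MYH7 added, and 5 excitation-contraction coupling genes were called in place of 3, with more genes tested. Leaving out single libraries gave 18 to 21 members higher and 1 lower: MYLPF was lost without vehicle A and without DB2115 B, and ATP2A1 without vehicle B. Upper-quartile factors and total counts moved the share of calls that were higher from 51.1% to 57.3% and the median log2 change of all genes from 0.03 to 0.12. Of the fitted log2 changes of 24 members, 175 values under alternatives moved by less than the replicate spread and 17 by more, none with a change of direction among called members. The smaller of the planned prior counts is the default and gave no separate value.

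A replicate block on the column letters called 11424 genes against 11030 and the same 19 and 1 members. The labels do not tie the letters to pairs, and deviations of same-lettered libraries correlated at 0.016, so no pairing was assumed. Depth limits the members under 30 counts: 0 counts in 1 library allows up to 0.0707 to 0.0821 CPM.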
